A study of Mus musculus with 3 samples.

Results

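Transcripts of the tumour necrosis factor (TNF) superfamily, its ligands and its receptors, were measured in mouse bone marrow-derived dendritic cells (BMDC). Members were taken by name: every gene whose symbol begins with Tnfsf or Tnfrsf, and in addition Tnf, Lta, Ltb, Ltbr, Cd27, Cd40, Cd40lg, Cd70, Fas, Fasl, Ngfr, Eda, Edar and Eda2r. This gave 43 of 19938 measured genes, 16 ligands and 27 receptors, each with 1 probe set of its own. The naming rule itself uses no expression value. All 3 samples belong to 1 group, BMDC of the inbred strain C57BL/6J, grown from marrow over 9 days with 20 ng/ml each of the cytokines GM-CSF and IL-4, and total RNA of each was hybridised to 1 Affymetrix array. There was no second treatment, genotype or time, so the values describe which members these cultures expressed and where the arrays differed. Separate mice or cultures are not named in the labels, so each spread below is that between these 3 samples and may be technical.

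Ligands of the TNF superfamily are mostly membrane proteins that act as trimers, on the cell or after being cut from it. Their receptors fall into those that recruit TRAF adaptors and switch on NF-kB and MAP kinases, those with a cytoplasmic death domain that can also start cell death, and decoys that bind a ligand without passing on a death signal. Dendritic cells use the family to exchange signals with T cells. CD40 on the dendritic cell receives CD40 ligand from the T cell, and the ligands encoded by Tnfsf4, Tnfsf9, Cd70 and Tnfsf18 are known to pass from antigen-presenting cells to receptors on T cells.

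Values are log2 expression as the authors deposited it, made with RMA. A gene was called above background where it exceeded, in each array, the 95th percentile of that array's 1210 probe sets for olfactory and vomeronasal receptors, at 5.54, 5.54 and 5.55 log2 units in replicates 1, 2 and 3. This call is a rough statement of detection, since probe sets bind with different strength, and levels of different genes are not ranked here. It is also lenient: 13 of 52 measured genes of other tissues (liver, muscle, neurons and the like) passed it. A stricter limit, the 99th percentile of the same probe sets (6.28, 6.24 and 6.33), is named where it changes the call of a member or of a list below. With 3 arrays, the precision of each value is limited.

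Of the 43 members, 29 (67.4%) were above background in each array, against 60.5% of all 19938 genes. At the 99th percentile limit 21 members remained above, against 46.2% of all genes. Above a limit set by those 52 genes of other tissues (their own 95th percentile in each array) 20 members remained, against 45.4% of all genes. Ligands and receptors had different counts. Of the 16 ligands 8 were above background in each array and 8 in none. Of the 27 receptors 21 (77.8%) were above it in each array, 5 in none and 1, Tnfrsf19, in 1 array. At the 99th percentile limit the counts were 4 of 16 ligands and 17 of 27 receptors.

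Among the inflammatory ligands, Tnf, the founding cytokine of the family, had 7.30, 7.41 and 7.30 log2 units in replicates 1, 2 and 3, which lay above both limits in each array. Ltb, the membrane-bound partner chain of lymphotoxin, had 6.01, 5.94 and 5.86, above background but under the 99th percentile limit in every array. Lta, the chain that forms lymphotoxin alone or with Ltb, had 5.21 in each array and lay below background. These 3 genes are neighbours in the RefSeq gene order, with Tnf between Ltb and Lta, and the calls differed within that locus.

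The 250 bases before the RefSeq start of each of the 3 genes (RefSeq, build GRCm38.p6) are shown because adjacent genes had different calls, and that of Fasl because it differed most between arrays. Capitals mark letters found by a search on both strands. The motifs searched were the NF-kB consensus, the AP-1 site TGANTCA and the TATA box. The last was searched as TATAAA. In these 4 windows no matches overlapped.
Tnf (chr17:35202008-35202257, minus strand): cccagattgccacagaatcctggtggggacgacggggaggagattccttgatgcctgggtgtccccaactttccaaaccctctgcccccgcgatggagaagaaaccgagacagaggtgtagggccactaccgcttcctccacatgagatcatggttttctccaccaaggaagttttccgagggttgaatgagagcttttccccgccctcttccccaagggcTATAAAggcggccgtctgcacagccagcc
Lta (chr17:35205352-35205601, minus strand): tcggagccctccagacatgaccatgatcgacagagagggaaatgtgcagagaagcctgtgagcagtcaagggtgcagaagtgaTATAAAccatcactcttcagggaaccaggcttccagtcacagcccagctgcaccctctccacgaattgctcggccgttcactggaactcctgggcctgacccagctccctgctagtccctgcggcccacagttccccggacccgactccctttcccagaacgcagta
Ltb (chr17:35194257-35194506, plus strand): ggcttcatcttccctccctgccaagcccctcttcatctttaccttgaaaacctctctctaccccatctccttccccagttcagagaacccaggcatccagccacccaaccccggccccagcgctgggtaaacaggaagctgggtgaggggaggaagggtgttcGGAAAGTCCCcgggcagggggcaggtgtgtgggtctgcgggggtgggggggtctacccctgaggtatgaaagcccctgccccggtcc
Fasl (chr1:161788496-161788745, minus strand): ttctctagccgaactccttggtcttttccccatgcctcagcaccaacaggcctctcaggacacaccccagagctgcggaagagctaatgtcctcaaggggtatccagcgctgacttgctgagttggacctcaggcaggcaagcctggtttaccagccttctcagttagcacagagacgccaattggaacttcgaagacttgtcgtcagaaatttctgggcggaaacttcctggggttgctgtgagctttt
The Tnf window holds TATAAA beginning 29 bases before the start, and the Lta window holds it 167 bases before the start. The Ltb window holds GGAAAGTCCC, a match to the NF-kB consensus, beginning 87 bases before the start. The Fasl window holds none of the 3 motifs.

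RefSeq windows were matched for 34 of the 43 members (38 windows, since a gene can have several). The NF-kB consensus was in 3 of the 38, those of Ltb, Tnfrsf8 and Tnfrsf9, against 3.9% of all 32851 windows of the same length. Tnfrsf9 held it in overlapping matches that begin 43 and 42 bases before the start. The AP-1 letters were in 5 of 38, those of Fas, Tnfrsf8, Tnfrsf9, Tnfsf13b and Tnfsf14, against 6.75% of all windows. The TATA letters were in 7 of 38, against 12.4%. A match is a stretch of letters and does not show that a factor binds there.

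**Figure D1:**
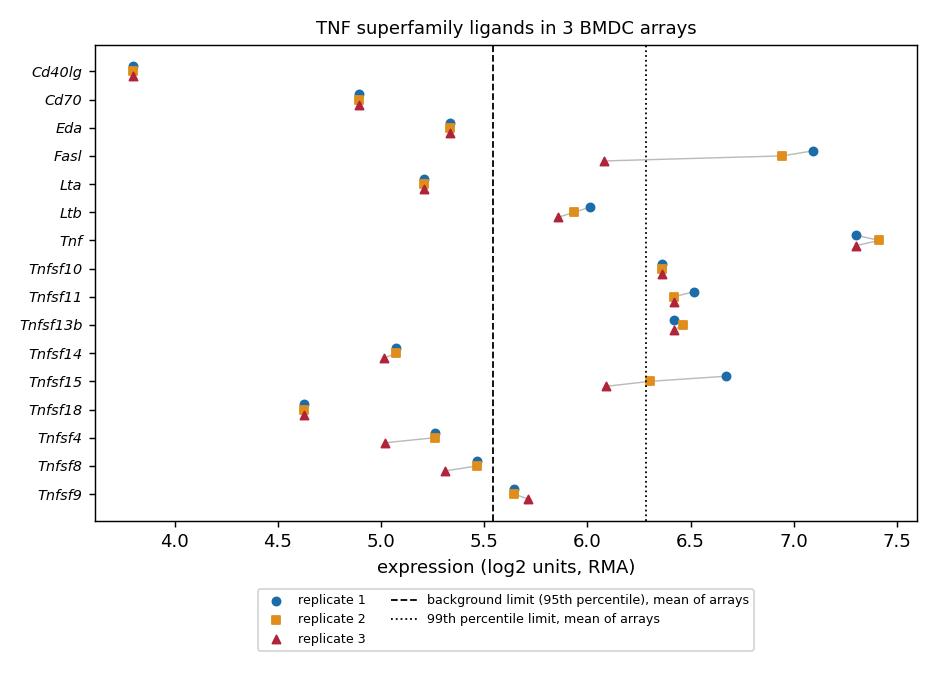
Log2 expression (x axis, RMA) of the 16 ligands (rows), with 1 point per array; a grey line joins the arrays of a gene, and vertical lines mark the 95th and 99th percentile limits averaged over arrays. Fasl spans 7.09 to 6.08 and Tnfsf15 6.67 to 6.09, while Cd40lg, Cd70, Eda, Lta and Tnfsf18 sit at 1 value left of both lines.

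Ligands of cell death were above background. Fasl, which triggers death through the receptor Fas and is known from killer T cells and NK cells, had 7.09, 6.94 and 6.08 log2 units in replicates 1, 2 and 3. Replicate 3 was the low one and lay under the 99th percentile limit. Tnfsf10, which encodes TRAIL, had 6.36 in each array, above both limits.

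The ligands that act on B cells, osteoclasts and T cells were above background in part. Tnfsf13b, which encodes the B cell survival factor BAFF, had 6.42, 6.46 and 6.42 log2 units, and Tnfsf11, which encodes RANKL, the factor that drives osteoclast formation, had 6.52, 6.42 and 6.42. Both were above both limits in each array. Tnfsf15, which encodes TL1A, a costimulator of T cells, had 6.67, 6.30 and 6.09. It was above background in each array and under the 99th percentile limit in replicate 3 alone.

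Of the other T cell costimulators, Tnfsf9, which encodes 4-1BB ligand, was above background at 5.64, 5.64 and 5.71 log2 units, and under the 99th percentile limit in every array. The remaining ones lay below background. Tnfsf4, which encodes OX40 ligand, had 5.26, 5.26 and 5.02, and Tnfsf8, which encodes CD30 ligand, had 5.47, 5.47 and 5.31. Tnfsf14, which encodes LIGHT, had 5.07, 5.07 and 5.01. Cd70 (4.89) and Tnfsf18 (4.63), which encodes GITR ligand, had the same value in each array. Tnfsf8 and Tnfsf9 were the ligands nearest to the limit, with means 0.13 log2 units below and above it. Cd40lg, known from activated helper T cells, had 3.80 in each array, and Eda, the ligand of skin appendage development, had 5.33.

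Receptors for TNF itself were above both limits. Tnfrsf1a, the death domain receptor that most cells carry, had 9.76, 9.77 and 9.77 log2 units in replicates 1, 2 and 3. Tnfrsf1b, the TRAF-binding TNF receptor typical of blood cells, had 10.09, 10.14 and 10.14. Replicate 1 was the lowest for both, by less than 0.05 log2 units.

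Receptors that recruit TRAF adaptors were above background in 13 of 16 cases, against 60.5% of all genes, and above the 99th percentile limit in 11, against 46.2% of all genes. Cd40, which receives the licensing signal of helper T cells, had 7.56, 7.59 and 7.59 log2 units. Ltbr, the lymphotoxin beta receptor, had 7.43 in each array. Tnfrsf14, known as HVEM, the partner of LIGHT and BTLA, had 8.74, 8.86 and 8.85. Tnfrsf11a, which encodes RANK, the receptor for RANKL on dendritic cells and osteoclast precursors, had 8.31, 8.33 and 8.33. All 4 genes were above both limits in each array, and the widest span between arrays among them was 0.12 log2 units, in Tnfrsf14.

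The receptors better known from T cells were detected too. Tnfrsf9, which encodes 4-1BB, had 8.05, 8.25 and 8.22 log2 units, with replicate 1 the lowest. Tnfrsf18, which encodes GITR, had 7.86, 7.69 and 7.19, and its neighbour in gene order Tnfrsf4, which encodes OX40, had 7.23, 7.07 and 6.89. Both were lowest in replicate 3 and above both limits in each array. Cd27 had 6.30, 6.14 and 5.77, above background in each array and above the 99th percentile limit in replicate 1 alone. Tnfrsf8, which encodes CD30, had 5.92, 5.92 and 5.91 and lay between the limits.

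The B cell receptors of BAFF and APRIL differed in their calls. Tnfrsf13b, which encodes TACI, had 7.01 log2 units in each array, and Tnfrsf13c, the BAFF receptor, had 7.07, 6.84 and 6.84, both above both limits. Tnfrsf17, the plasma cell receptor BCMA, had 4.82 in each array, below background. Of 9 measured B cell markers 3 were above background, against 60.5% of all genes, and 0 were above the 99th percentile limit. Of the first 3 genes of that list Cd79b had 6.41, 6.40 and 6.23 while Cd79a (4.48 ± 0.19, SD, n = 3) and Ms4a1 (3.80 in each array) lay below.

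Tnfrsf12a, the receptor of TWEAK, had 6.98 log2 units in each array. Tnfrsf19 had 5.52, 5.54 and 5.52 and passed the limit in replicate 2 by less than 0.01. Eda2r had 5.19 in each array, below background.

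Death domain receptors were above background in 5 of 7 cases, against 60.5% of all genes, and above the 99th percentile limit in 3, against 46.2%. Fas had 6.30, 6.38 and 6.30 log2 units, and replicate 3 lay under the 99th percentile limit. Tnfrsf10b, the mouse TRAIL death receptor, had 7.13 in each array, and Tnfrsf21, known as death receptor 6, had 9.25 in each. Ngfr, a receptor of neurotrophins, had 6.10 in each array and lay between the limits. Tnfrsf25 (5.22), the receptor of TL1A, and Edar (4.98) had the same value in each array, below background.

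Of the decoy receptors, Tnfrsf22 and Tnfrsf23, which bind TRAIL in the mouse without a death domain, were above both limits. Tnfrsf22 had 7.09, 7.08 and 7.31 log2 units, and Tnfrsf23 had 9.03, 9.03 and 9.08. Tnfrsf26, which lies beside Tnfrsf22 in the RefSeq order and is their close relative, had 9.70, 9.75 and 10.01. Each of these 3 adjacent genes was highest in replicate 3. Near-identical copies can share hybridisation signal, so the 3 are not independent observations. Tnfrsf11b, which encodes osteoprotegerin, the soluble decoy of RANKL, had 4.76 in each array, below background.

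**Figure D2:**
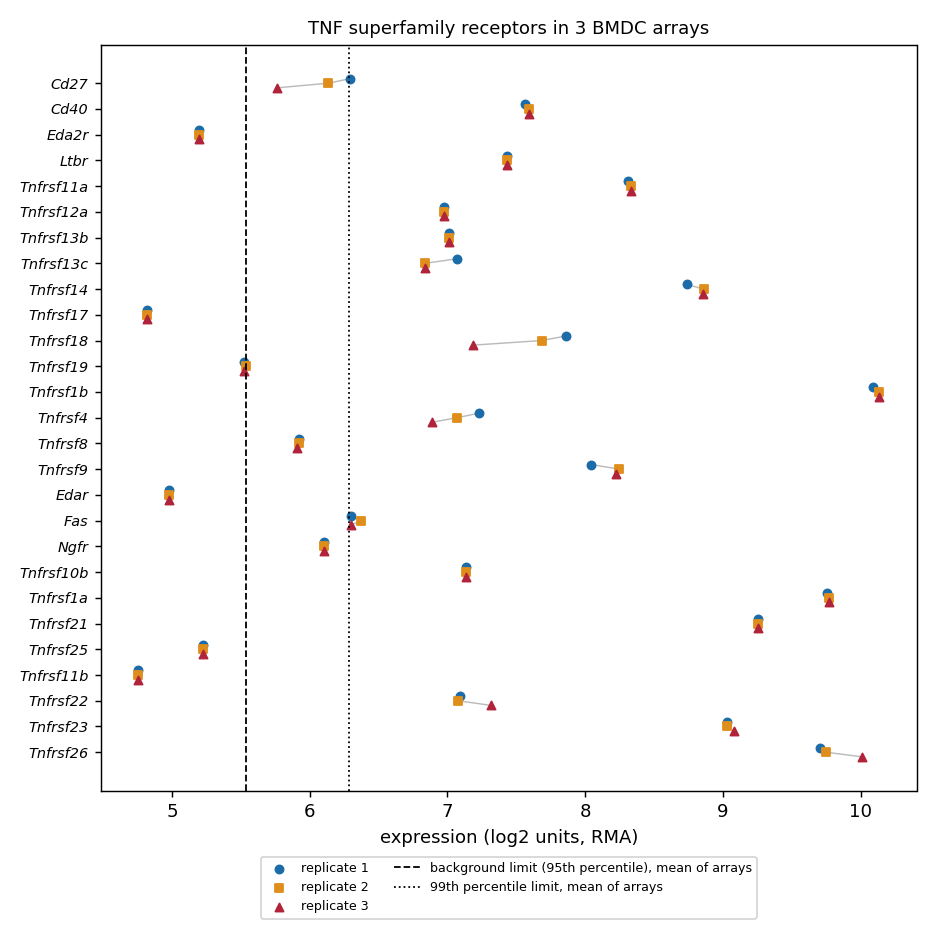
Log2 expression (x axis, RMA) of the 27 receptors (rows: 16 TRAF-binding, then 7 with a death domain, then 3 decoys, then Tnfrsf26), with 1 point per array; vertical lines mark the 95th and 99th percentile limits averaged over arrays. Of the receptors, 17 lie above both limits in each array; Cd27 and Tnfrsf18 are displaced to the left in replicate 3, and Tnfrsf22 and Tnfrsf26 to the right.

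Against 60.5% of all genes singly above background, 11 of 25 measured ligand and receptor pairs had both sides above it. These were Tnf with Tnfrsf1a and Tnfrsf1b, Ltb with Ltbr, Fasl with Fas, Tnfsf9 with Tnfrsf9, Tnfsf10 with Tnfrsf10b, Tnfrsf22 and Tnfrsf23, Tnfsf11 with Tnfrsf11a, and Tnfsf13b with Tnfrsf13b and Tnfrsf13c. In 9 pairs the receptor alone was above background, among them Cd40 without Cd40lg, Tnfrsf4 without Tnfsf4, Tnfrsf18 without Tnfsf18, Cd27 without Cd70 and Tnfrsf14 without Tnfsf14. In 3 pairs the ligand alone was, as with Tnfsf15 and its receptor Tnfrsf25, and in the 2 pairs of Eda neither was. Pairs share members and are not independent. Another 3 of the 28 pairs listed need Tnfsf12 or Tnfsf13, which have no probe set of their own. With the limit at the 99th percentile, 8 pairs had both sides above it, against 46.2% of all genes singly. No share over other gene pairs was computed.

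**Figure D3:**
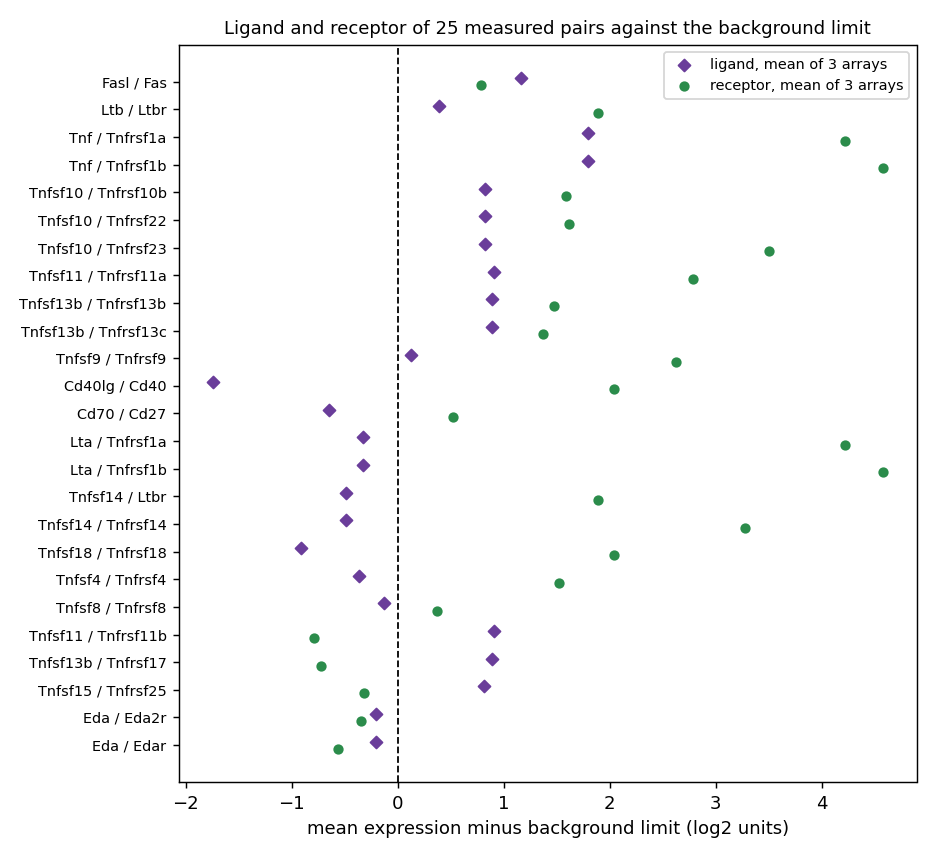
Mean expression over 3 arrays minus the mean background limit (x axis, log2 units) of the ligand (diamonds) and the receptor (circles) of the 25 measured pairs, with the 11 pairs that have both above background at the top. In the next 9 rows the ligand lies left of the line and the receptor right of it, and distances of different genes cannot be compared in amount.

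Genes that act behind the receptors were widely detected. All 52 measured genes of 6 pathway lists (57 genes listed) were above the limit in each array, against 60.5% of all genes, and none spanned over 0.5 log2 units. Among 10 measured adaptors, Traf1, which is itself induced by NF-kB, had 7.04, 7.17 and 6.86 log2 units and Traf2 had 7.08 in each array. Of 11 ubiquitin enzymes and their regulators, Birc2 (7.10 in each array) and Birc3 (8.02 ± 0.05, SD, n = 3) encode the cIAP ligases of the TNF receptor complex. Of 6 death effectors, Casp8, the initiator caspase, had 10.28 in each array, and Cflar, its inhibitor, had 8.72, 8.72 and 8.76.

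Of 10 measured kinases and partners, Map3k7, which encodes TAK1, had 8.19 log2 units and its partner Tab1 had 6.71, each the same in the 3 arrays. Of 8 NF-kB factors and inhibitors, Nfkb2 had 8.03, 7.92 and 7.73 and Rela had 9.40, 9.50 and 9.29, both lowest in replicate 3. Nfkbia, an NF-kB inhibitor that NF-kB induces, was named after its values were seen: it had 9.10, 9.35 and 9.55 and was highest in replicate 3. Of 7 genes of shedding and processing, Adam17, the sheddase that releases TNF, had 9.55, 9.51 and 9.51, and Adam10 had 10.11 in each array. At the 99th percentile limit 50 of the 52 remained above, against 46.2% of all genes, and the other two, named after their values were seen, were Map3k5 (5.94 ± 0.11, SD, n = 3) and Rhbdf1 (5.79 in each array).

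Array differences over 0.5 log2 units were found in 4 members, and smaller ones in most others. Of the 30 members above background in at least 1 array, 7 had 3 identical values, against 45.9% of all genes above background in at least 1 array. In 4 (2 ligands and 2 receptors) the highest and lowest array differed by over 0.5 log2 units, against 2.99% of those genes. The 4 were Fasl, Tnfsf15, Tnfrsf18 and Cd27, and each was highest in replicate 1 and lowest in replicate 3. Fasl (probe set 10359434) differed by 1.01 log2 units or 2.02-fold between replicates 1 and 3. Tnfrsf18 (10511290) differed by 0.68 or 1.60-fold, Tnfsf15 (10513722) by 0.58 or 1.50-fold and Cd27 (10547985) by 0.53 or 1.44-fold. The count rests on replicate 3: without it 0 members spanned over 0.5, without replicate 1 there were 2, and without replicate 2 there were 4. The share of all genes over 0.5 with an array left out was not computed. No test was run on these differences, since the 3 arrays form 1 group and values identical between arrays leave no usable variance.

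Of the 23 members above background with values that were not all identical, 7 were lowest in replicate 3, against 38.2% of all such genes, and 4 were highest there, against 35.6%. The 7 were Fasl, Ltb, Tnfsf15, Cd27, Tnfrsf18, Tnfrsf4 and Tnfrsf8. The 4 were Tnfsf9, Tnfrsf22, Tnfrsf23 and Tnfrsf26. The count in replicate 3 depends on small shifts and ties. With each array centred on housekeeping genes, 16 of the 23 members were lowest there, against 66.5% of all such genes. Without replicate 1, 13 of 17 members with unequal values were lower in replicate 3 than in replicate 2, against 51.3% of all such genes.

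**Figure D4:**
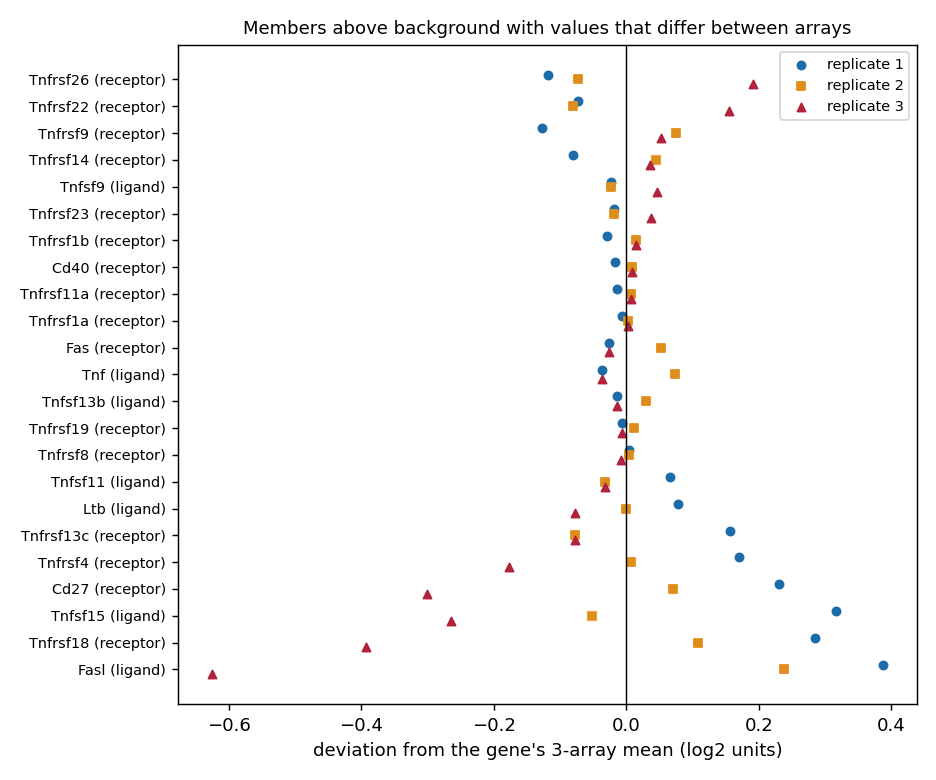
Deviation of a member's value in each array from its own mean over arrays (x axis, log2 units) for the 23 members above background in at least 1 array whose values differed, ordered by replicate 3 minus replicate 1. Fasl, Tnfrsf18, Tnfsf15 and Cd27 at the bottom have replicate 3 on the left, and Tnfrsf26 and Tnfrsf22 at the top have it on the right.

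Averaged over the 8 ligands above background in each array, the arrays deviated by 0.10, 0.03 and -0.13 log2 units in replicates 1, 2 and 3. Without Fasl, an alternative chosen after seeing the data, the deviation of replicate 3 was -0.054. Over all 16 measured ligands it was -0.08, against -0.01 for all genes. Over all 27 receptors it was -0.02.

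Marker lists of NK cells, T cells, mast cells and basophils, neutrophils and megakaryocytes, over all measured genes, were on average also lowest in replicate 3. Stromal markers were on average lowest in replicate 2, and the B cell and osteoclast lists deviated by -0.05 and -0.03 in replicate 3. The counts in these lists stand beside 60.5% of all genes above background and 46.2% above the 99th percentile limit. The 12 NK cell markers deviated by 0.26, 0.09 and -0.36 log2 units, with a mean level of 7.29, 7.12 and 6.67. Of these 8 were above background and 7 above the 99th percentile limit, and all 8 were lowest in replicate 3. They include Gzma and Gzmb (10.33 ± 0.61 and 10.38 ± 0.62, SD, n = 3), which cytotoxic T cells also express. The NK receptor genes of the list differed in their calls. Klrb1c, named after its values were seen, had 6.51, 6.45 and 5.94 in replicates 1, 2 and 3. It was above background in each array and under the 99th percentile limit in replicate 3. Ncr1 (4.23), Klrd1 (4.89), Klra8 (3.94) and Klre1 (3.39) had the same value in each array and lay below background. The 12 T cell markers deviated by 0.28, 0.04 and -0.32, with a mean level of 7.33, 7.09 and 6.73. Of these 11 were above background in each array and 8 above the 99th percentile limit. Cd3e, Cd3g and Cd3d had 9.09, 8.65 and 6.90 log2 units in replicate 1 and 8.15, 7.44 and 6.10 in replicate 3.

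The 19 measured cell cycle genes deviated by 0.34, 0.09 and -0.43 log2 units, with a mean level of 7.80, 7.55 and 7.03. All were above background and 14 above the 99th percentile limit, and Mki67 and Top2a had 8.50 and 8.06 in replicate 1 and 7.38 and 6.77 in replicate 3. Of the 19 genes 18 were lowest in replicate 3. The other 1, Pcna, named after its values were seen, had 11.13, 11.13 and 11.27 and was highest there. The 11 mast cell and basophil markers (4 above background in each array, 2 above the 99th percentile limit) deviated by 0.19, 0.26 and -0.46, with a mean level of 5.78, 5.85 and 5.13. Their first 3 genes, Cpa3, Prss34 and Gata2, had 7.38, 7.75 and 6.99 in replicate 1 and 5.38, 6.38 and 6.42 in replicate 3. Of the 6 genes above background in at least 1 array, 5 were lowest in replicate 3. Other genes of the list, named after their values were seen, had the same value in each array. These were Tpsb2 (5.78), above background, and Kit (5.22), Tpsab1 (4.59) and Mcpt4 (4.23), below it.

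The 12 neutrophil markers (5 above background in each array, 1 above the 99th percentile limit) deviated by 0.24, 0.16 and -0.40 log2 units, with a mean level of 6.24, 6.16 and 5.60. Over the 5 above background in each array the deviations were 0.02, 0.05 and -0.07. Ly6g, Lcn2 and Retnlg, which passed the limit in replicates 1 and 2 alone, had 6.73, 7.98 and 7.35 in replicate 1 and 4.86, 5.12 and 5.55 in replicate 3. The 7 megakaryocyte markers, all above background and 5 above the 99th percentile limit, deviated by 0.19, 0.06 and -0.24, with a mean level of 7.90, 7.77 and 7.47. Pf4 and Ppbp had 10.65 and 8.04 in replicate 1 and 9.59 and 6.64 in replicate 3, and Itga2b had 6.33 in each array. Of the 7 genes 3 were lowest in replicate 3. Treml1, Clec1b and Gp9, named after their values were seen, did not share the drop. Treml1 had 7.66, 7.73 and 7.75 and was highest in replicate 3, Clec1b had 8.68, 8.67 and 8.67, and Gp9 had 5.61 in each array.

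Stromal markers were on average highest in replicate 1, and 5 of the 10 passed the background limit in some arrays only. The 10 measured genes deviated by 0.76, -0.41 and -0.34 log2 units, with a mean level of 6.51, 5.34 and 5.42, and the 3 above background in each array (2 above the 99th percentile limit) by 0.09, -0.05 and -0.03. Dcn, Sparc and Lox had 8.12, 7.64 and 7.58 in replicate 1 and 5.41, 5.78 and 4.63 in replicate 3. Of the 8 stromal genes above background in at least 1 array, 4 spanned over 0.5 log2 units. The collagens Col1a1, Col1a2 and Col3a1, named after their values were seen, moved less. They had 6.94, 6.53 and 6.10 in replicate 1 and 6.76, 6.36 and 6.10 in replicate 3. The part of these cells in the differences of Fasl, Tnfrsf18, Tnfsf15 and Cd27 was not tested. In such bulk RNA, fewer cells of a type and less RNA per cell cannot be told apart.

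Of 11 dendritic cell markers 7 were above both limits, against 60.5% of all genes above background and 46.2% above the 99th percentile limit. The 11 deviated by 0.02, 0.06 and -0.08 log2 units, with a mean level of 8.71, 8.75 and 8.61. Itgax, which encodes CD11c, had 11.91, 11.92 and 11.91 log2 units and Zbtb46 had 6.36 in each array, while Flt3 (5.39 ± 0.13, SD, n = 3) lay below background. Ccr7, named after its values were seen, had 10.15, 10.50 and 9.74, a span of 0.77. All 11 measured macrophage markers were above both limits, against the same shares of all genes. They deviated by 0.10, 0.00 and -0.10, with a mean level of 10.59, 10.50 and 10.39. Adgre1, Mertk and Csf1r had 10.16 ± 0.11, 10.61 ± 0.04 and 10.91 ± 0.14 (SD, n = 3). C1qa, named after its values were seen, had 10.73, 10.40 and 10.09, a span of 0.64.

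Of 10 osteoclast markers 8 were above both limits, against 46.2% of all genes above the 99th percentile limit. RANKL drives osteoclast formation, and any part of it in these levels was not tested. The 10 deviated by 0.01, 0.01 and -0.03 log2 units, with a mean level of 8.90 in replicates 1 and 2 and 8.86 in replicate 3. Acp5 and Ctsk had 11.37 ± 0.12 and 9.24 ± 0.06 (SD, n = 3), and Calcr (4.87 in each array) lay below background. The 9 B cell markers deviated by 0.04, 0.01 and -0.05, with a mean level of 5.08, 5.05 and 4.99. Housekeeping genes (10 measured, Actb and Hprt among them) deviated by 0.02, 0.00 and -0.02.

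**Figure D5:**
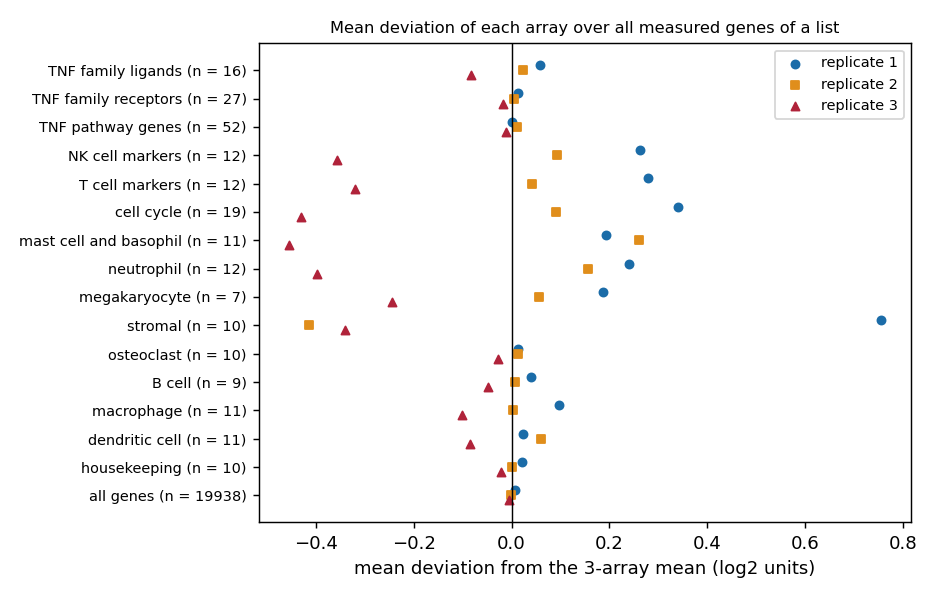
Array deviations (x axis, log2 units) averaged over all measured genes of a list, with their number beside the name. Replicate 3 lies at -0.08 for the ligands and -0.02 for the receptors, against -0.36 for NK cell markers and -0.01 for all genes. It lies at -0.10 for macrophage and -0.08 for dendritic cell markers.

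Identical values bear on the calls. Of the 43 members 17 had the same value in all 3 arrays to the last digit, against 44.79% of all probe sets. Of the 17, 7 were above background and 10 below. In 11 of the 17, other probe sets of the table held that same value in every array, so the number is not particular to the gene. Of the 10 below background 9 shared their value in this way, Tnfsf18 with 159 other probe sets, Tnfrsf11b with 92, Cd70 with 91 and Cd40lg with 89. Of the 7 above background 2 did, Ngfr with 46 others and Tnfsf10 with 25. Ltbr, Tnfrsf10b, Tnfrsf12a, Tnfrsf13b and Tnfrsf21 were identical between arrays without sharing all 3 values with another probe set. Within single arrays the low value of Fasl in replicate 3 was shared by 54 other probe sets and that of Ltb in replicate 3 by 67, whereas none shared a value of Tnfsf15 or Tnfrsf18. What these shared values come from was not tested.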

How the data were processed

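Total RNA of 3 BMDC samples (1 group) was amplified from 150 ng, labelled with biotin and hybridised to 1 array each, per the labels' protocols. The authors deposited log2 values. Per the submitters' processing notes they come from RMA. No tool version or build is given in the sources used here. Scanner files were not used here. RMA quantile normalizes arrays and summarizes probes by median polish, which can leave identical values between arrays. Of 35556 probe sets, the annotation table pairs 21789 with a single gene and 1621 with several, and 12146 are unlisted. Probe sets naming several genes were not used. Each gene took its probe set with the highest mean; no member had several. Entrez identifiers of all 43 members matched a RefSeq gene table (GRCm38.p6).

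Calls, ranges and deviations were computed in Python 3.11.15 (numpy 2.4.6, pandas 2.3.3) and tested on simulated data. No comparison between groups and no test was possible with 1 group. Members, lists and pairs were chosen with earlier results of these data known. Every member was named or counted. Of each pathway list the first 2 measured genes were named, as were genes below the limit or spanning over 0.5 log2 units. Of cell type lists the mean level (log values are not summed), the counts and the first 3 genes were given, measured ones only. Alternatives covered the limit, the call on the mean, the probe set, the scaling, the filter, the span and each replicate left out.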

Additional observations from a re-analysis of the deposited data

Results flagged for a closer look

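The probe set that names Tnfsfm13, Tnfsf13 and Tnfsf12 together was left out of every count because it names 3 genes. It had a mean of 9.04 log2 units (9.03, 9.04 and 9.04 in replicates 1, 2 and 3), above background in each array. The ligands APRIL and TWEAK, which Tnfsf13 and Tnfsf12 encode, cannot be told apart in it. Of their receptor genes Tnfrsf13b and Tnfrsf12a were above background, while Tnfrsf17, another receptor of APRIL, lay below it at 4.82 in each array.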

How the results depend on the processing

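Of 61 alternative values, 52 stayed close to the reported one, that is, within 1.5 times for a count and within 1 SD over the arrays for a mean deviation. The 52 include the alternatives with the median over all probe sets of a gene. For members these could not differ, since each member has 1 probe set. The 52 also include the deviations without Fasl and without Tnfrsf18, which were nearer to 0 than the reported ones. The count of ligands above background was 8 at the limit used, 4 at the 99th percentile and 3 with a limit set by genes of other tissues (6.38, 6.36 and 6.36 log2 units), which left Tnf, Tnfsf11 and Tnfsf13b. With that last limit 17 receptors were above it, against 45.4% of all genes, and 5 pairs had both sides above it. Centring each array on the housekeeping genes moves replicate 3 by 0.03 log2 units against the 3-array mean. With it, 16 members were lowest in replicate 3 in place of 7. Centring breaks ties between equal values and also reverses small differences. In Cd40, for example, replicate 1 was the lowest before centring, at 7.56 against 7.59 in replicate 3. The mean deviation of the receptors in replicate 3 was -0.054 in place of -0.022. With the span limit at 1 log2 unit, 1 member, Fasl, exceeded it. Leaving out 1 array at a time gave 0 to 4 members spanning over 0.5 log2 units and 9 to 13 lowest in replicate 3. Without replicate 3 the count of members lowest in it and the deviations of that array have no value. Of these counts only the 13 without replicate 1 have a share over all genes, 51.3%. For the others, and for the span limit of 1 log2 unit, no such share was computed, so they cannot be set against all genes. Without Tnfrsf18, an alternative chosen after seeing the data, the receptors deviated by -0.0044 in replicate 3. No paired analysis was possible because the samples form 1 group. Scanner signals over background were not used here, so how far dim probe sets limit the calls is unknown.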

Other observations

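Relt, which encodes a receptor of the TNF superfamily under a symbol outside the naming rule, had 6.79, 6.80 and 6.79 log2 units in replicates 1, 2 and 3 and was above background in each array. Among the 43 members, 18 lay directly beside another member in the RefSeq order of protein-coding genes, in 11 adjacent pairs. Both genes were above background in 5 of these pairs, 1 of the 2 genes in 4 and neither in 2. Singly, 60.5% of all genes were above background in each array. The pairs with both above were Ltb and Tnf, Tnfrsf1b and Tnfrsf8, Tnfrsf4 and Tnfrsf18, Tnfrsf26 and Tnfrsf22, and Tnfrsf22 and Tnfrsf23. All genes in the 4 pairs with different calls were ligands: Tnfsf18 and Fasl, Tnf and Lta, Tnfsf9 and Cd70, and Tnfsf15 and Tnfsf8. Pairs share members and are not independent, and no test was run.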
